A study of Mus musculus with 5 samples.

Results

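Binding of the transcription factor CREB and an H3K4 mark were examined at 7 genes of DNA replication in the mouse fetal testis. They are Mcm2, Mcm3, Mcm4, Mcm5, Mcm6 and Mcm7, which encode the subunits of the replicative helicase, and Pcna, which encodes the sliding clamp. The genes were taken by name from the 21887 protein-coding genes on the assembled chromosomes of the RefSeq annotation of GRCm38.p6, whose coordinates are those of mm10. A peak was counted for a gene when it touched the gene body or the 3000 bp on either side.

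The Mcm2 to Mcm7 proteins form a ring that is loaded onto replication origins in G1 by the origin recognition complex, Cdc6 and Cdt1, a step called licensing, and that unwinds DNA in S phase. Pcna is the ring that holds DNA polymerases on the template. Genes of both kinds are textbook targets of E2F factors and serve as markers of proliferating cells, and the fetal testis holds dividing Sertoli cells beside germ cells that stop dividing before birth. CREB is the factor that cAMP and protein kinase A activate, and its best known DNA element, the CRE, has the letters TGACGTCA.

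The study used CUT&RUN, a method that cuts out and sequences the DNA beside the target of an antibody, on dissociated cells of male gonads. CREB was profiled on embryonic days E13.5, E16.5 and, last, E18.5, and H3K4, whose methylation state the labels do not name, at E18.5, with 1 library each, so that no value has a replicate check and no test between stages was possible. The sources used here give neither strain nor genotype, and all groups hold mixed cells of the whole gonad, so fewer cells of a type and less binding per cell cannot be told apart. An IgG library, whose labels name different stages, was not analysed here.

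In stage order the lists held 862, 3528 and 2957 CREB peaks, beside 21211 H3K4 peaks, with a usual width of 150, 630, 160 and 210 bp, and no score or read count. Read depth is unknown, so the absence of a gene from a list does not show a lack of binding. For the labelled tissue, H3K4 peaks were found at 9 of 20 markers of testis cell types, a share below that of all protein-coding genes (63.1%), so the marker counts do not single out the testis. Among them were 5 of 6 for Sertoli cells (Sox9 and Amh included) and 3 of 6 for Leydig cells (Star included), with 1 of 4 for germ cells (Dazl). Markers of endothelium, of blood and macrophages, and of the mesonephros had one in 2 of 3, 2 of 4 and 2 of 3 cases. The defining interstitial markers Nr2f2, Tcf21 and Pdgfra had none, and of 6 markers of other tissues only Neurod1 had one.

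RefSeq promoter windows of GRCm38.p6, from 250 bases before a start site to 50 from it on, were matched for 6 of the 7 genes; Mcm4 was not matched. Those printed are the window with a full CRE (Mcm5), a pair with the partial CRE TGACG, its first bases, and a CREB peak (Pcna and Mcm2), and the window of the helicase gene without a CREB peak (Mcm6). Capitals mark TGACG on either strand or the full CRE, and in Mcm6, which holds neither, the E2F-type letters TTTNNCGC on either strand. The windows are chr8:75109259-75109558 on the plus strand for Mcm5, and on the minus strand chr2:132253131-132253430 for Pcna, chr6:88898731-88899030 for Mcm2 and chr1:128359656-128359955 for Mcm6.
Mcm5: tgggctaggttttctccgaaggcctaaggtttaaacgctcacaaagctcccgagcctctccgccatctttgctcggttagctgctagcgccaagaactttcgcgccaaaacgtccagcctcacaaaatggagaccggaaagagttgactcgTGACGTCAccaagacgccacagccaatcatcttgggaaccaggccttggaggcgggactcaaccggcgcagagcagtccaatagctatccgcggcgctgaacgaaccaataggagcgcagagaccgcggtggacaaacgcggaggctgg
Pcna: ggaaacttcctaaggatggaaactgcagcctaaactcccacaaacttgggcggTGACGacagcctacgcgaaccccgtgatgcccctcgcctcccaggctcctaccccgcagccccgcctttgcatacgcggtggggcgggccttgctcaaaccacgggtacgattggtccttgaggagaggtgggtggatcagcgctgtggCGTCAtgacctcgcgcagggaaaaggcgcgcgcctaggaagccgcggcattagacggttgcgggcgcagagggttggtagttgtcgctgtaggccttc
Mcm2: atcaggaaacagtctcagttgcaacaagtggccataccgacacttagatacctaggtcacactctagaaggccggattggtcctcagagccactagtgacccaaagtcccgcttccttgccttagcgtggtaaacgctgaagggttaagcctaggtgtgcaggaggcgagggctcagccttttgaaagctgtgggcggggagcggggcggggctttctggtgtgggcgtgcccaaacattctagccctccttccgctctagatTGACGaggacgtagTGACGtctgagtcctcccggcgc
Mcm6: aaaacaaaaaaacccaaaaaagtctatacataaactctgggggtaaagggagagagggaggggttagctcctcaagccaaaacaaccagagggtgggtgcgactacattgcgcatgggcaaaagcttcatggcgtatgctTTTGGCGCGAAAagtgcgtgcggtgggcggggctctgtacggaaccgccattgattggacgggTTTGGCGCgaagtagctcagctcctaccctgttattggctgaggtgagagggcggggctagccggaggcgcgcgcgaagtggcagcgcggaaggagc

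CREB peaks were found at 1 of the 7 genes at E13.5 and at 5 of them at each later stage. Pcna had one at every stage, Mcm2, Mcm4 and Mcm5 at E16.5 and E18.5, Mcm7 at E16.5 and Mcm3 at E18.5. Mcm6 was the helicase gene with no CREB peak in any list. By the same rule 4.82%, 18.3% and 15.6% of all protein-coding genes had a CREB peak, in stage order. Among the 13819 genes that also had an H3K4 peak the shares were 7.54%, 28.6% and 24.4%. Mcm2, counted at both later stages, had no H3K4 peak and so lies outside this narrower background. The single gene at E13.5 is too few to set against its background. Gene length differed little, with a median of 15.3 kb for the 7 genes (3.9 to 28.1) against 17.2 kb for all protein-coding genes.

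The E13.5 list is the shortest, and list length bears on the stages at which a gene appears. When each list was limited to its first 862 rows, as many as E13.5 holds, 3 of the 7 genes had a CREB peak at E16.5, and 3 in the E18.5 list, in both cases Mcm4, Mcm5 and Pcna. With that limit 5.28% and 5.16% of all protein-coding genes had one. No source used here says what the row order follows.

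**Figure D1:**
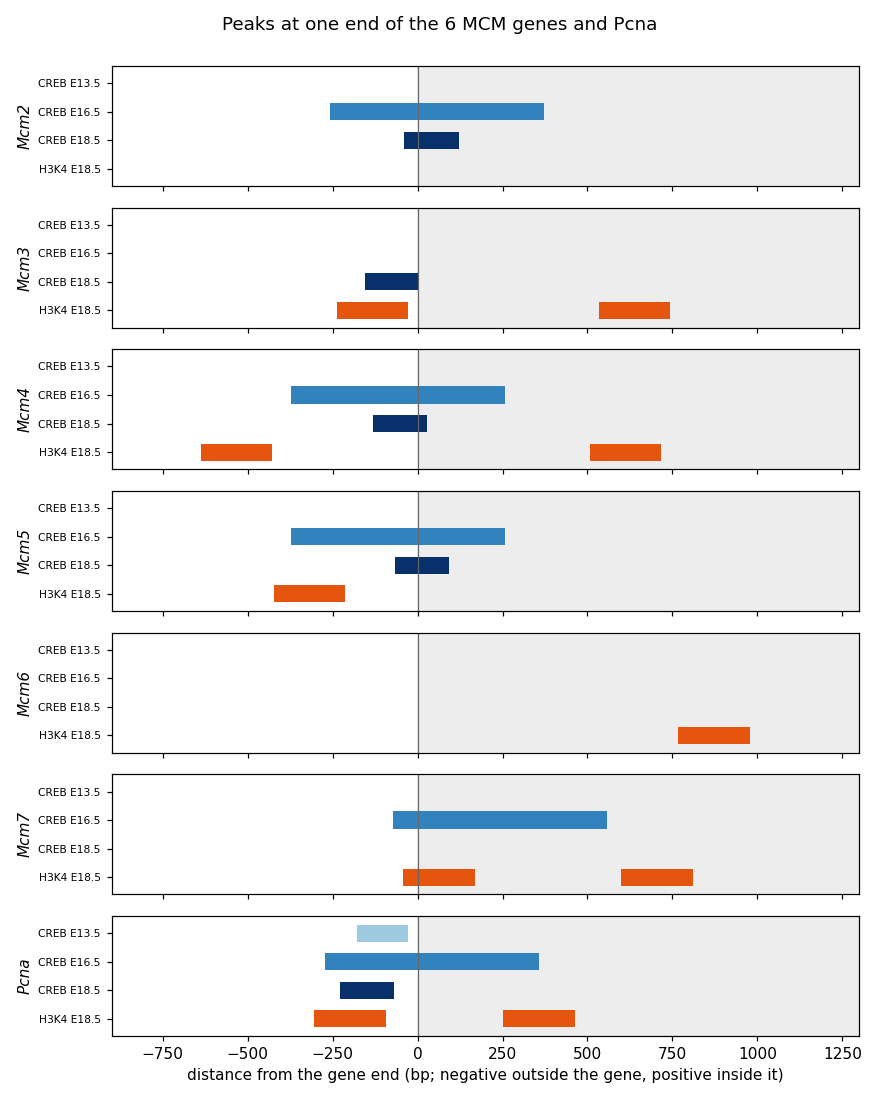
Peaks of the 4 lists, drawn to scale in rows by list, at one end of each of the 7 genes; the horizontal axis gives the distance from that gene end in bp, negative outside the gene and positive inside it (grey). CREB peaks lie on or beside the gene end, from 149 bp outside it (Pcna, E18.5) to 243 bp inside (Mcm7, E16.5), judged by midpoints, while Mcm6 has an H3K4 peak alone; peaks near Tmem230 and Cops6, at the other end of Pcna and Mcm7, fall outside the drawn range.

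The 7 genes held 13 CREB peaks over the 3 lists, and 11 of these had a midpoint within 250 bp of one gene end. For the genes with an annotated start site in the table this was the end at the start. The other 2 lay beyond the far end of Pcna. Among the 6 peaks at E18.5 the median distance to the nearest end of the gene itself was 63.5 bp. Over the 2776 CREB peaks in the window of any protein-coding gene at that stage the median was 123.5 bp. That value was measured to the nearest end of any gene whose window held the peak, neighbours included, so these medians are not measured alike. No CREB peak was found in the interior of any of the 7 genes away from the ends.

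Pcna (chromosome 2, 132249286 to 132253180, minus strand) had the earliest CREB peaks of the set. They stood in row 124 of 862 at E13.5, row 174 of 3528 at E16.5 and row 157 of 2957 at E18.5, and spanned 132253210 to 132253359, 132252824 to 132253453 and 132253250 to 132253409. Their midpoints lay 104 bp upstream, 42 bp downstream and 149 bp upstream of the start site. The midpoints of the narrow E13.5 and E18.5 peaks were 45 bp apart, and these peaks shared 110 bp. The wide E16.5 peak had a midpoint 146 bp from the first and 191 bp from the second and covered both in full. Pcna was thus one of the 4.66% of protein-coding genes with a CREB peak in all 3 lists.

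The Pcna peaks also belong to a neighbour. Cds2, which encodes a CDP-diacylglycerol synthase of phospholipid synthesis, begins at 132253338, with a gap of 157 bp between the genes, and all 3 peaks touch it. The midpoint was nearer to the end of Cds2 than to that of Pcna at E13.5 (54 against 104 bp) and at E18.5 (9 against 149 bp), whereas at E16.5 it was nearer to Pcna (42 against 200 bp). The start sites that the promoter table lists for Cds2 lie at least 9819 bp from the E18.5 midpoint, so the end of the annotated gene, not a listed start site, is what the peak touches.

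A further pair of CREB peaks lay beyond the 3′ end of Pcna, at 132247436 to 132248065 in row 1171 at E16.5 and at 132247681 to 132247840 in row 969 at E18.5. Their midpoints were 1536 and 1526 bp outside Pcna and 38 and 28 bp from a listed start site of Tmem230. The nearer annotated edge of Tmem230, a transmembrane protein gene, lies 226 bp from Pcna. Without this pair Pcna would still be counted at every stage.

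Mcm4 and Mcm5 followed Pcna in row order. Mcm4 (chromosome 16, 15623897 to 15637400) had a peak at 15637144 to 15637773 in row 409 at E16.5 and at 15637373 to 15637532 in row 414 at E18.5. Their midpoints were 6 bp apart and lay 58 and 52 bp outside the gene. Prkdc, which encodes the catalytic subunit of DNA-dependent protein kinase, a double-strand break repair enzyme, begins 43 bp away at 15637444. Both peaks spanned this gap, touched both genes, and had midpoints 14 and 8 bp from the end of Prkdc. They cannot be assigned to one gene of the pair by position.

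Mcm5 (chromosome 8, 75109468 to 75128439, plus strand) had peaks at 75109096 to 75109725 in row 586 at E16.5 and at 75109402 to 75109561 in row 707 at E18.5. Their midpoints lay 99 and 28 bp upstream of the listed start site and were 71 bp apart. No other annotated gene shares these peaks. At E13.5 the nearest CREB peak was 75.5 kb away, at Tom1.

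Mcm2 (chromosome 6, 88883474 to 88898780, minus strand) appeared later in the rows, in 2348 of 3528 for E16.5 and in 2005 of 2957 for E18.5. The peaks, at 88898409 to 88899038 and 88898660 to 88898819, had midpoints 57 and 41 bp downstream of the start site, 16 bp apart, and no other gene within reach. Mcm2 and Mcm5 together held the 4 of 13 CREB peaks that fell in no other gene's window.

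Mcm3 and Mcm7 each had a CREB peak at 1 stage. The Mcm3 peak (chromosome 1, 20820308 to 20820467) stood in row 2616 of 2957 at E18.5, with its midpoint 75 bp upstream of the start site. It is also within 3000 bp of the pseudogene Gm20587, which begins 1018 bp from Mcm3. At E16.5 the nearest CREB peak was 130.9 kb from Mcm3. The Mcm7 peak (chromosome 5, 138171554 to 138172183) stood in row 2113 of 3528 at E16.5, with its midpoint 15 bp downstream of a listed start site at 138171883 and 243 bp inside the outer gene end. Mcm7 overlaps Ap4m1, a gene for an adaptor protein of vesicle transport, by 91 bp, and the peak touched both, with the midpoint 153 bp from the Ap4m1 start site. At E18.5 the nearest CREB peak was 47.5 kb from Mcm7. Mir25, Mir93 and Mir106b lie inside Mcm7, and the midpoint of this peak was 6506, 6302 and 6091 bp from the middle of their hairpins.

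Mcm6 (chromosome 1, 128331575 to 128359705, minus strand) had its nearest CREB peak 228.9 kb away at E13.5, 228.6 kb away at E16.5 and 11.4 kb away at E18.5. The first pair lies at Zranb3 and R3hdm1 and the last at Dars, an aspartyl-tRNA synthetase gene. Mcm6 was the longest of the 7 genes and so had the widest window.

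**Figure D2:**
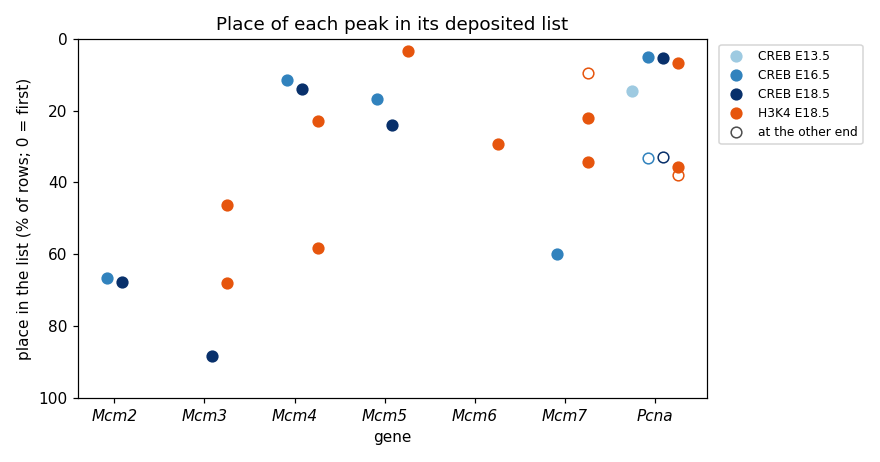
Place of every peak of the 7 genes in its list, as a percentage of the rows with the first row at the top; colours mark the list and open circles the peaks at the other gene end, near Tmem230 (Pcna) and Cops6 (Mcm7). Peaks at the Pcna start lie at 4.93% and 5.31% of the rows at E16.5 and E18.5, and the Mcm3 peak at 88.5% of the E18.5 rows.

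For genes counted at both E16.5 and E18.5, places within the lists were closest for the Pcna start and Mcm2 and furthest apart for Mcm5. They were 4.93% and 5.31% of the rows for the Pcna start at E16.5 and E18.5, 11.6% and 14.0% for Mcm4, 16.6% and 23.9% for Mcm5 and 66.6% and 67.8% for Mcm2. The genes with a peak at 1 stage were late, at 59.9% for Mcm7 and 88.5% for Mcm3. At E13.5 the Pcna peak stood at 14.4% of a list that is shorter.

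Of the 13 CREB peaks, 8 also fell in the window of a protein-coding neighbour and 1 in that of a pseudogene only. At E18.5 this held for 3 of 6 peaks with a protein-coding neighbour, and 31.6% of all CREB peaks in windows of protein-coding genes at that stage fell in the window of more than 1 such gene.

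H3K4 peaks at E18.5 were found at 6 of the 7 genes, against 63.1% of all protein-coding genes. The exception was Mcm2, whose nearest H3K4 peak, at 88902069 to 88902278, was 3289 bp from the gene, at Tpra1, and is counted when the window is widened to 5000 bp. Mcm2 therefore had CREB peaks at both later stages and no H3K4 peak by the rule. Of the genes with a CREB peak at E18.5, 1.4% had no H3K4 peak.

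Pcna had 3 H3K4 peaks, of which one beyond its 3′ end stood at Tmem230. Those at its start had midpoints 357 bp downstream and 199 bp upstream of the start site, in rows 1404 and 7552 of 21211. Relative to the E18.5 CREB midpoint they lay 506 bp toward the gene body and 50 bp away from it, the latter sharing 135 bp with the CREB peak. Mcm4 had a peak on each side of its CREB peak, 664 bp toward the gene body and 480 bp toward Prkdc, and neither touched it. Mcm3 had one 713 bp toward the gene body and one 58 bp the other way, which shared 127 bp with the CREB peak. Among the 6 CREB peaks at E18.5, 3 thus had H3K4 midpoints on both sides within 1000 bp and 2 overlapped an H3K4 peak. Over all CREB peaks in windows of protein-coding genes these shares were 25.9% and 33.8%.

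Mcm5 had a single H3K4 peak, in row 728 of 21211, the earliest H3K4 row of the set. Its midpoint lay 330 bp upstream of the E18.5 CREB midpoint, and the peaks did not touch. Mcm6 had a single H3K4 peak inside the gene, 872 bp from the start site, in row 6182. Mcm7 had H3K4 peaks with midpoints 63 and 704 bp inside its outer end, in rows 7267 and 4670, although no CREB peak was found there at E18.5. A further peak, in row 2034, touched its window from the far end and lay inside Cops6, a subunit gene of the COP9 signalosome, 398 bp from the start site of Cops6.

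The presence pattern over the 4 lists was shared with many genes in most cases. Mcm4 and Mcm5 belonged to 1910 protein-coding genes with CREB at E16.5 and E18.5 and with H3K4. Pcna belonged to 1009 with a peak in every list, Mcm7 to 1017, Mcm3 to 437 and Mcm6, with H3K4 alone, to 9413. The pattern of Mcm2, CREB at both later stages without H3K4, was found in 27 genes. Among the 1008 other genes with a peak in every list, those whose first rows stood closest to Pcna's, by the largest difference in list place over the 4 lists, were Cds2, which has the same peaks, Swsap1 (2.2 percentage points) and Eif5a (2.94 percentage points).

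The promoter windows printed above show where the CRE letters stand. Full CRE letters occurred in 1 of 6 matched genes, Mcm5, and in 1.79% of all 32851 RefSeq promoter windows. The site, at chr8:75109410-75109417, begins 99 bases upstream of the listed start site. Its middle was 4 bp from the E16.5 CREB midpoint and 67 bp from the E18.5 midpoint, and it was inside both peaks. Over promoter windows touched by a CREB peak, the CRE was present in 16.1%, 11.4% and 10.3% in stage order, and over those touched by an H3K4 peak in 3.22%.

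The partial CRE TGACG, outside a full CRE and on either strand, occurred in 3 further genes, Mcm2, Mcm7 and Pcna, and in 19.5% of all windows. Windows touched by a CREB peak held it in 67.5%, 53.5% and 55.6% of cases in stage order, and those touched by H3K4 in 29.8%. Mcm2 held it 13 and 27 bases downstream of its start site. The second reads TGACGTCT, which differs from the CRE in 1 base, and its middle was 12 bp from the E18.5 CREB midpoint. In Mcm7 it reads TGACGACG, lies 8 bases downstream of the start site in the part shared with the Ap4m1 window, and was 5 bp from the E16.5 CREB midpoint. Pcna held TGACGACA 197 bases upstream and, on the other strand, TGACGCCA 48 bases upstream. Each of these also differs from the CRE in 1 base. TGACGACA was 46 bp from the E18.5 midpoint and inside that peak, but 91 bp from the E13.5 midpoint and outside that peak. TGACGCCA was 58 bp from the E13.5 midpoint and inside that peak, but 103 bp from the E18.5 midpoint and outside that peak. Both were inside the wide E16.5 peak. The Tmem230 window beside Pcna held TGACGTGG, 44 bp from the E18.5 CREB midpoint there.

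Full or partial CRE letters were thus present in 4 of the 6 matched genes, against 20.8% of all windows and 76.4%, 60.8% and 62.2% of those touched by a CREB peak, in stage order. The count of 4 of 6 is near the share of CREB-touched windows, and 5 of the 6 genes have a CREB peak. It is a count of genes, of which Mcm7 has 2 windows, set beside shares of windows. Mcm3, which has a CREB peak at E18.5, and Mcm6, which has none, held neither. The nearest searched motif to the Mcm3 CREB midpoint was a CCAAT box 5 bp away. A match of letters is a description and does not show where CREB binds.

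Of the other motifs searched on both strands, all but the TATA box were found in Mcm6 as well as in genes with CREB. The E2F-type letters TTTNNCGC occurred in 4 of 6 genes (Mcm3, Mcm5, Mcm6 and Mcm7), in 5.17% of all windows and in 11.6% of those touched by CREB at E18.5. In Mcm6 and Mcm5 a pair of such matches on opposite strands overlap, as the capitals in the Mcm6 window show. CCAAT boxes occurred in 6 of 6 genes, in 37.4% of all windows and in 55.0% of the CREB-touched ones. GC boxes (GGGCGG) occurred in 5 of 6 genes, with shares of 35.7% and 74.0%, and the TATA box letters TATAAA in 0 of 6, with shares of 13.6% and 5.53%. The GC box and TATA box counts are thus near the shares of CREB-touched windows. However, the counts are of genes, and the shares are of windows touched at E18.5, when Mcm6 and Mcm7 had no CREB peak.

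**Figure D3:**
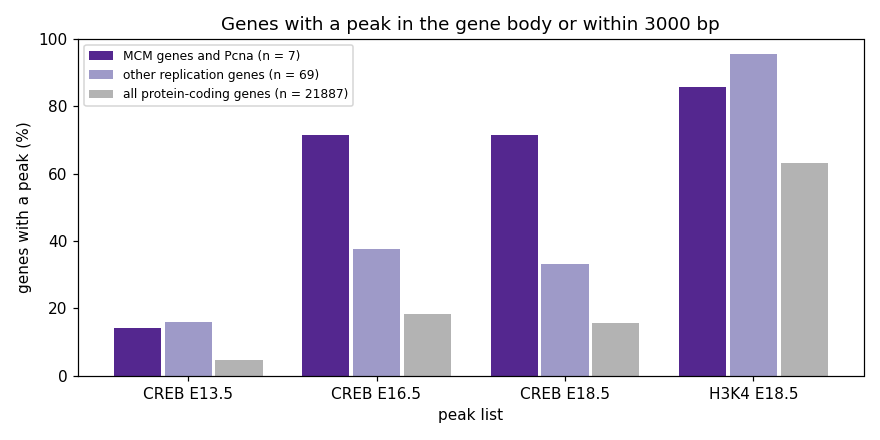
Percentage of genes with a peak in the gene body or within 3000 bp, for the 6 MCM genes with Pcna (n = 7), 69 other DNA replication genes and all 21887 protein-coding genes, in each peak list. For CREB at E16.5 and E18.5 the bars of the 7 genes stand for 5 genes each, and those of the other replication genes for 26 and 23.

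Other genes of DNA replication had CREB peaks in 11 of 69 cases at E13.5, in 26 at E16.5 and then in 23, and H3K4 peaks in 66. These are 15.9%, 37.7%, 33.3% and 95.7% of the list, above the shares of 4.82%, 18.3%, 15.6% and 63.1% over all protein-coding genes. Among protein-coding genes that also had an H3K4 peak, as 66 of these 69 did, the CREB shares were 7.54%, 28.6% and 24.4%. The CREB shares of the list are thus less far above this narrower background. In the 3 CREB lists together 31 of the 69 had a peak and 38 had none. Of all 21887 protein-coding genes 4481 had a peak and 17406 had none. All 11 genes counted at E13.5 were also counted at both later stages. This was general, as 1021 of the 1056 protein-coding genes counted at E13.5 had a CREB peak in all 3 lists. The genes without an H3K4 peak were Topbp1, Pclaf and Rrm2.

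Genes that load or activate the helicase made up 6 of the 11 found at every stage, and these roles hold 9 and 12 of the 69 genes. Neighbours that share the peaks of these other replication genes are not given here. Of 9 origin recognition and loading genes, 2, 4 and 4 had a CREB peak in stage order. Orc1, the largest subunit of the origin recognition complex, stood in rows 356, 276 and 357, and its peaks lay 3616, 3529 and 3529 bp inside the nearest annotated end. Cdc6, the loader that works with it, stood in rows 682, 1431 and 1081, with midpoints 11, 1 and 19 bp from the gene end. Of 12 genes of helicase activation, 4, 5 and 5 had a peak. Gins2, a subunit of the GINS complex that joins the active helicase, had the earliest rows of the whole list, 39, 27 and 28, with midpoints 190, 243 and 225 bp from the gene end. Cdc45, the other partner of that helicase, stood in rows 834, 579 and 631, Recql4 in 833, 738 and 1285 and Ticrr, which helps recruit Cdc45, in 716, 1370 and 1567.

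Among the 5 other MCM family genes and partners, 2, 3 and 3 had a CREB peak. Mcm8 and Mcm9, which form a separate helicase that acts in homologous recombination, had one at every stage, in rows 245, 1562 and 864 and in rows 828, 1452 and 1196. The 12 polymerase and primase genes had 1, 6 and 2, with the polymerase delta catalytic gene Pold1 at every stage (rows 470, 437 and 325). Of 16 clamp loader and clamp partner genes, 1, 5 and 4 had a peak, with Rfc4, a subunit of the loader that opens Pcna, in rows 769, 650 and 1209. The 9 fork and single-strand binding genes had 0, 1 and 3 and the 6 nucleotide supply genes 1, 2 and 2.

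**Figure D4:**
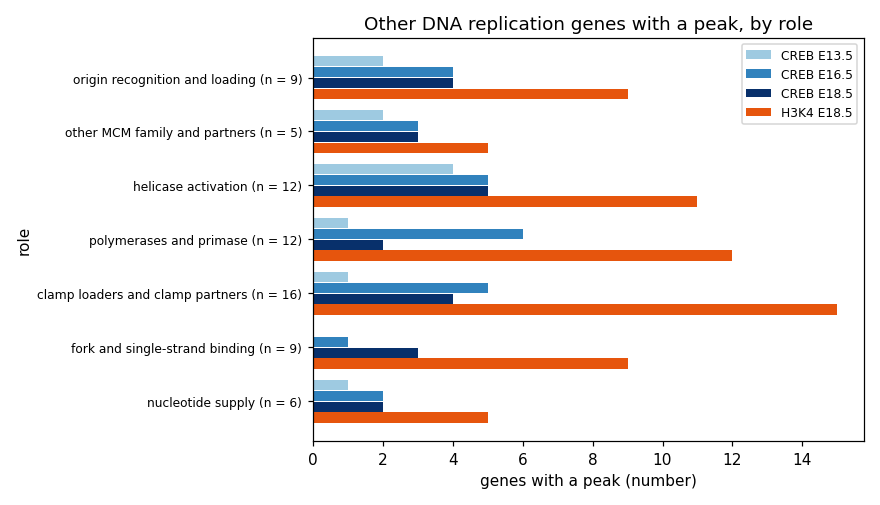
Number of other DNA replication genes with a peak by role; bars give the count in each list and the number of genes of a role stands beside its name. Helicase activation has 4 of 12 genes with a CREB peak at E13.5, and the fork and single-strand binding genes have 0 of 9.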

How the data were processed

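CUT&RUN was done on 100000 dissociated gonadal cells per assay, per the labels' protocols. Per the submitters' processing notes, Bowtie2 2.5.2, Trim Galore 0.6.10 and MACS2 were used with the build mm10. For peak calling, settings and any use of the IgG library as control are not stated there. The deposited lists hold chromosome, start and end of each peak, 1 library per group. Coordinates count from 1, and a distance is that of the peak midpoint.

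Peaks were joined to a RefSeq table of GRCm38.p6 by a window of 3000 bp around each gene. Strand and start sites came from the RefSeq promoter table. The 7 genes and the lists were chosen with earlier results of these data known, so counts are set beside all protein-coding genes and carry no test. Named are the 7 genes, neighbours that share a peak, other replication genes with CREB at all 3 stages (1 is not reported here), and the 3 genes most like Pcna in list place. Genes at the nearest peak of a list where a gene had none, and the replication genes without H3K4, were named after their values were seen. The counting was tested on simulated lists, where all 200 planted peaks were recovered in each of 4 lists on 21887 genes. Python 3.11.15, numpy 2.4.6, pandas 2.3.3 and matplotlib 3.10.9 were used. Alternatives were windows of 0, 1000 and 5000 bp, start sites alone, a common width of 150 bp, midpoints, and lists of one length.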

Additional observations from a re-analysis of the deposited data

How the results depend on the processing

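Of 62 values recomputed under alternatives, 53 stayed within 1.5 times the reported count. Counting the gene body alone gave 0 of the 7 genes at E13.5 for CREB, because the Pcna peak lies outside the gene, and 7 (E13.5) and 15 (E18.5) other replication genes. The share of all protein-coding genes by the gene body alone is not given here, so these counts cannot be set against a background. With the first 862 rows of each list, 3 of the 7 genes were counted in each later list, with 7 (E16.5) and 6 (E18.5) other replication genes. Of the 6 CREB peaks at E18.5, 5 had an H3K4 midpoint within 500 bp and 5 within 1000 bp, against 2 by overlap. The share of all CREB peaks at these distances is not given here, so the counts of 5 cannot be set against a background. Within 1000 bp of a listed start site, or for Mcm4, which has none listed, of either gene end, the counts of the 7 genes were 1, 5, 5 and 6, as reported. No paired analysis was possible because each group holds 1 library. Peak lists without scores or reads allow no stricter threshold, and the depth behind a missing peak is unknown.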
